A study of Mus musculus with 16 samples.

Results

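IgA plasma cells were the 214 cells that the deposited annotation of the mouse transverse colon calls Plasma_IgA, of 22717 cells in all. They were taken by that annotation alone, from every one of the 16 mice. Epithelial cells released with EDTA and cells of the enzymatically dissociated remaining tissue were sorted by FACS and measured by droplet single-cell RNA-seq, in which each captured RNA molecule is counted once as a UMI (unique molecular identifier). All mice were C57BL/6J females that were 7 weeks old when housed. The 4 uninjured mice, 2 collected at each time, are named with neither dextran sulfate sodium (DSS) nor an antibody. The 6 anti-GFP mice drank 4% DSS, a detergent-like polymer that injures the colonic epithelium, for the whole experiment and received an anti-GFP control antibody on day 4 of it. The 6 SZN-1326-p mice drank the same DSS and received SZN-1326-p, named in the series title as an FZD-specific activator of Wnt signaling, on the same day. The treatment protocol states 10 mg/kg once, ahead of the names of both agents. Mice were collected 24 h after dosing (day 5) or 48 h after dosing (day 6), 3 per DSS arm and time. The anti-GFP against uninjured comparison therefore measures DSS with a control antibody, and the SZN-1326-p against anti-GFP comparison measures the activator within DSS.

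Plasma cells are B-lineage cells that devote most of their RNA and their endoplasmic reticulum to secreting 1 antibody. In the gut lamina propria most of them make dimeric IgA, held together by the joining chain Jchain and carried across the epithelium into the lumen, where it coats bacteria. The switch from B cell to plasma cell runs through Prdm1 (Blimp-1), Irf4 and Xbp1, and the last of these drives the chaperones and translocation machinery of the endoplasmic reticulum. Long-lived plasma cells depend on survival signals such as those received by BCMA, the product of Tnfrsf17.

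The endoplasmic reticulum genes are shown here by their promoters, because 20 of the 32 chaperone and unfolded-protein-response genes on the list used were higher in Plasma_IgA than in any of the 45 other annotated types. The letters searched were those of the endoplasmic reticulum stress element, CCAAT and CCACG with any 9 bases between them, on both strands, in RefSeq windows of 250 bases before to 50 bases after each gene's start (build GRCm38.p6). They were found in 7 of the 27 chaperone genes matched in that table (25.9%: Hspa5, Hsp90b1, Calr, Canx, Pdia6, Dnajc3 and Syvn1). They were found in 2 of 15 matched plasma cell identity genes (Derl3 and Creld2) and in 37 of all 27025 genes (0.137%). Of 2 other motifs searched, TGACGTGG was in 2 of the 27 chaperone genes, 1 of the 15 identity genes and 0.714% of all genes. The octamer ATGCAAAT was in 0 of the chaperone and 0 of the identity genes, beside 1.97% of all genes. The 250 bases before the start are given below for Hspa5, which encodes the chaperone BiP (chr2:34771840-34772089, plus strand), Creld2, an endoplasmic reticulum protein induced by misfolded cargo (chr15:88819396-88819645, plus strand), and Derl3, a component of the export route for misfolded proteins (chr10:75893148-75893397, plus strand). Capitals mark the match to the stress element, which lies on the gene's strand in Hspa5 and on the opposite strand in the others. It is a match of letters and not a measured binding site.
Hspa5: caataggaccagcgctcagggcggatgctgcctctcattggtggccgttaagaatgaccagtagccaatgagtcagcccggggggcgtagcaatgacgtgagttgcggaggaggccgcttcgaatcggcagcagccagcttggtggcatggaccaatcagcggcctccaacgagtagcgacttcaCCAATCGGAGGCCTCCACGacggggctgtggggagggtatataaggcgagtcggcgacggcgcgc
Creld2: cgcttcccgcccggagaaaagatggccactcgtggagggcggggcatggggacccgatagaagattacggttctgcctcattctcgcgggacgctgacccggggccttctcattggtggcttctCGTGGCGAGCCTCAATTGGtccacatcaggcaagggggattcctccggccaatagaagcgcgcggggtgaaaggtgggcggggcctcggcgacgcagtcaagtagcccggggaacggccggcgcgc
Derl3: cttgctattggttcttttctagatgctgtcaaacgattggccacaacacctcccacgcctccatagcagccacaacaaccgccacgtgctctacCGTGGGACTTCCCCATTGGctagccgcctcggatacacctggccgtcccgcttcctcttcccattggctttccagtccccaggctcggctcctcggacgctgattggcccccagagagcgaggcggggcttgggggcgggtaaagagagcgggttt

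The annotated cells carried the markers of their name. Igha, the constant region of the IgA heavy chain (chr12:113254830-113260236, minus strand, mm10), averaged 2774 normalized UMIs per cell, where a normalized UMI is a UMI divided by the cell's deposited size factor. The next highest type, Tcell2, held 6.04. Jchain (chr5:88519809-88527891, minus strand) averaged 1680 normalized UMIs in plasma cells and at most 2.11 in another type. Mzb1, a chaperone-like partner of antibody assembly, averaged 48.4 against at most 3.09, in Bcell2_IgM. No plasma cell was without a Jchain UMI, 2 of 214 had no Igha UMI and 4 had no Mzb1 UMI. All 8 plasma cell markers used (Igha, Jchain, Mzb1, Xbp1, Sdc1, Tnfrsf17, Prdm1 and Irf4) were highest in this type among the 46 annotated types. These levels describe the annotation and were not tested, since the types were named from the same cells.

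B-cell genes were split in the same cells. The receptor signalling chains Cd79a and Cd79b were kept at 7.48 and 4.42 normalized UMIs per cell, against highs of 23.8 and 8.43 in the B-cell types. The surface proteins Ms4a1 (CD20), Cd22 and Fcer2a, the adaptor Bank1 and the identity factor Pax5 lay between 0.00261 (Fcer2a) and 0.0221 (Ms4a1). Ms4a1 reached 11.3 in Bcell1_IgM. Of the antigen presentation genes, Cd74 averaged 45.2 to 65.6 and H2-Ab1 3.13 to 5.52 normalized UMIs in plasma cells of the uninjured mice.

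Beyond the markers, the genes with the highest fold over the mean of the other types included receptors, secreted proteins and endoplasmic reticulum components. Rnase2b, an eosinophil-type ribonuclease, was highest relative to other types at 1.37 normalized UMIs per cell against at most 0.00423 elsewhere. Tnfrsf17 followed Jchain with 6.76 against at most 0.0329. The chemokine receptor Ccr10, which draws IgA-secreting cells to mucosal epithelium, stood at 8.00 against at most 0.0393. Prg2, known as the major basic protein of eosinophil granules, stood at 2.07 against at most 0.0225 in ActDendri. Derl3, Eaf2, Cacna1s, Ly6c2, Glipr1, Pou2af1, Fam46c, Fam214a, Tnfrsf13b, Lax1, Edem2, St8sia6, Slamf7 and Cd28 completed the leading 20 with Mzb1. Of the 1368 genes with at least 1 normalized UMI per plasma cell, 306 were highest in this type. On the lists used, 26 of 44 secretory pathway genes, 13 of 26 proteasome genes and 1 of 27 genes of oxidative phosphorylation were highest in plasma cells.

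Plasma cells held more UMIs than B cells and the remaining immune cells. Their median was 21442 UMIs per cell (range 1659 to 51020), against 1869 in B cells and 6002 in the other immune cells. Immunoglobulin genes took 19.2% to 74.5% of the UMIs of single plasma cells, with a median of 52.1%. In B cells the median was 0.943%. The most abundant heavy-chain constant gene was Igha in 207 of 214 cells (96.7%), Ighg1 in 4, Ighg2b in 2 and Ighm in 1. The Ighg2b cell of an uninjured mouse at 24 h held 4513 Ighg2b UMIs and 1 Igha UMI, so the annotated class includes a few cells that express another isotype.

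Light-chain use was mostly kappa. A lambda constant gene led in 22 of 214 cells (10.3%, exact 95% binomial interval 6.56 to 15.2, which treats cells as independent and covers counting error only). By arm these were 10 of 139 uninjured cells, 7 of 38 anti-GFP cells and 5 of 37 SZN-1326-p cells. The 3 intervals (3.50 to 12.8%, 7.74 to 34.3% and 4.54 to 28.8%) pool cells over mice and do not compare the arms, which were not tested. Single mice ran from 3.45% to 10.7% in uninjured, 0% to 100% in anti-GFP and 0% to 50% in SZN-1326-p. The 100% was 2 of 2 cells. The matrix holds 25 Ighv, 36 Igkv and 3 Iglv genes, and most cells could not be assigned a variable gene. With at least 50 UMIs and 80% of variable-gene UMIs required in 1 gene, 15 cells had a heavy and 44 a light variable gene, led by Ighv1-76 (7 cells of 4 mice) and Iglv1 (12 cells of 9 mice). Among the 11 cells with both, no pair occurred more than once within a mouse, and 1 pair was found in different mice.

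The libraries differed in ways that touch these cells. Total UMIs per mouse ranged from 9616512 to 21335421, and mice had 936 to 2033 cells. The median mitochondrial share over all cells of a mouse was 19.2% to 26.1% in uninjured, 5.06% to 11.6% in anti-GFP and 6.54% to 24.1% in SZN-1326-p mice. In plasma cells it was 3.17% to 3.39%, 2.21% to 4.12% and 2.20% to 3.58%. Of all cells, 129 carried 1 of 64 barcodes found in more than 1 library, and 1 of them was a plasma cell. Igha UMIs were also found in vascular endothelium, a type that should lack the gene: 18.6% of those cells had one in the median uninjured mouse, against 7.41% with anti-GFP and 3.20% with SZN-1326-p, at median depths of 4220.5, 6001 and 4926.5 UMIs. The level there was 0.569, 0.177 and 0.0492 Igha UMIs per 10000 UMIs, against 1080 in plasma cells. Macrophages of SZN-1326-p mouse 2 at 24 h stood at 16.5, beside an arm median of 0.0699. Whether such UMIs came from free RNA or from mixed cells was not tested.

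Plasma cells made up a smaller share of all cells with DSS. The 4 uninjured mice held 28, 38, 29 and 44 plasma cells, which is 2.12%, 2.30%, 2.15% and 2.25% of their cells. The 6 anti-GFP mice held 8, 6 and 9 at 24 h and 2, 7 and 6 at 48 h, between 0.177% and 0.921% (median 0.615%). No anti-GFP mouse reached the uninjured range, although exact 95% binomial intervals of single mice, which cover counting error only, were wide (1.41% to 3.04% in the lowest uninjured and 0.422% to 1.74% in the highest anti-GFP mouse). After adding 0.5 to the cell numbers and taking log2 of the share, anti-GFP mice were lower by a difference of -1.94, a fold of 0.261 (exact permutation of arms within each time, two-sided, n = 4 and 6, p = 0.01, the smallest this design allows, and 0.03 after adjustment over the 6 tests made on mice). The difference was -1.60 at 24 h and -2.28 at 48 h, and with 2 mice against 3 neither time alone could go below an exact p of 0.1. A fall of this share with DSS was already known when the cell type was chosen. The test on the same mice is therefore not independent support for it. The share depends on the other cells too: immune cells of all kinds numbered 499 in uninjured, 2349 in anti-GFP and 1987 in SZN-1326-p mice. Of immune cells, plasma cells made up 23.8% to 32.2% in uninjured and 0.484% to 3.13% in anti-GFP mice. In droplet libraries from a sorted mixture, a loss of plasma cells from the tissue, a gain of other cells and a change in how well they were recovered cannot be told apart.

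The SZN-1326-p mice had 6, 19 and 3 plasma cells at 24 h and 4, 3 and 2 at 48 h. Their shares ran from 0.0984% to 1.15% with a median of 0.240%, overlapping the anti-GFP mice. The log2 difference from anti-GFP was -0.90 (exact permutation, two-sided, n = 6 and 6, p = 0.1, adjusted 0.15), which does not pass the threshold. This rested on single mice. Without mouse 2 of SZN-1326-p at 24 h, which held 19 of that arm's 37 cells, the difference was -1.28 (exact permutation p = 0.015). Without mouse 1 of anti-GFP at 48 h it was -1.18 (exact permutation p = 0.04).

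Against B cells, the earlier stage of their lineage, plasma cells were rarer still with DSS. The 2 B-cell types together held 27 cells in uninjured, 163 in anti-GFP and 129 in SZN-1326-p mice. With 0.5 added to both counts, the number of plasma cells per B cell was 6.33, 15.4, 2.57 and 4.24 in the uninjured mice, from 0.0872 to 3.40 (median 0.274) in the anti-GFP mice and from 0.0841 to 2.33 (median 0.531) in the SZN-1326-p mice. One anti-GFP mouse at 24 h, with 8 plasma and 2 B cells, lay within the uninjured range. The log2 difference between anti-GFP and uninjured was -3.93 (exact permutation, two-sided, n = 4 and 6, p = 0.01, adjusted 0.03). Without either of the uninjured mice at 24 h it was -3.88 or -3.46, each with an exact permutation p of 0.05, which is not below the threshold. The ratio uses the same plasma cell counts as the share, whose fall was known beforehand. SZN-1326-p differed from anti-GFP by 0.06 (exact permutation p = 0.925).

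**Figure D1:**
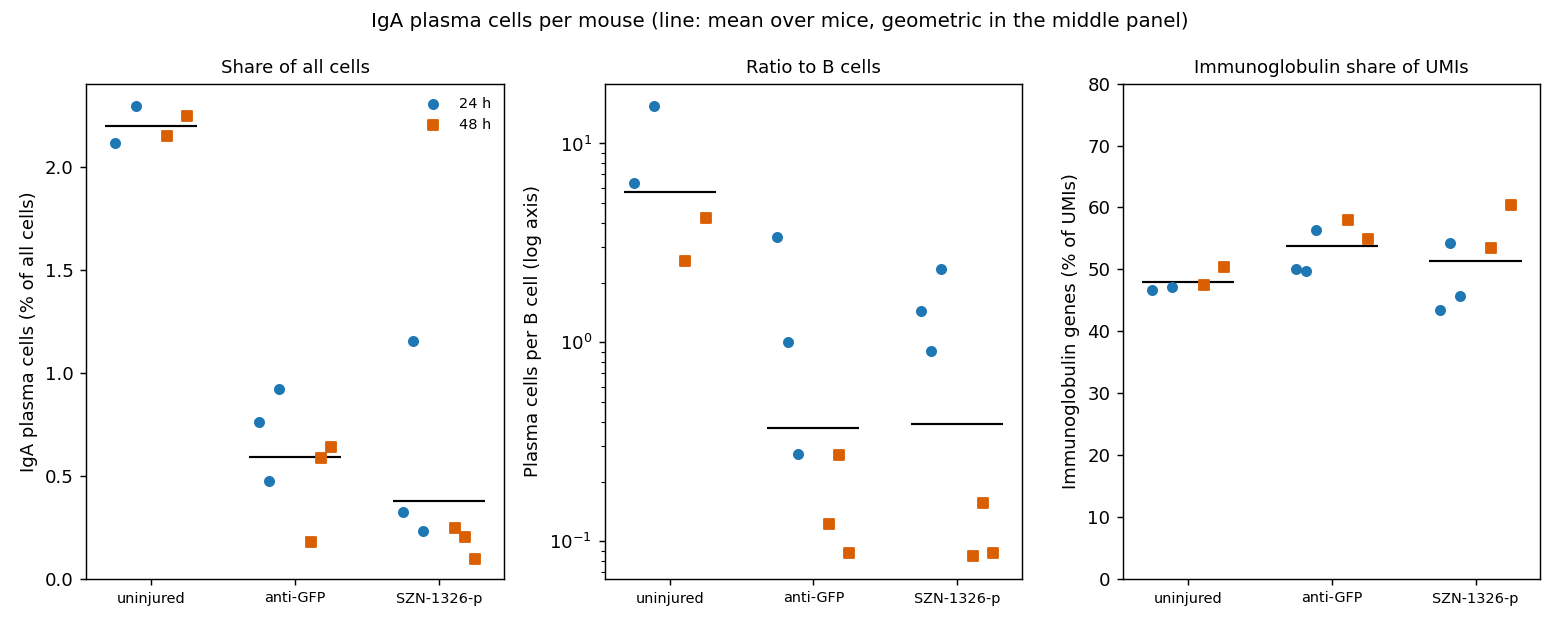
Each point is 1 mouse, coloured by time after dosing. The panels show IgA plasma cells as a percent of all cells, plasma cells per B cell with 0.5 added to both counts on a log axis, and the percent of UMIs in immunoglobulin genes averaged over plasma cells of mice with at least 3 of them. Lines are means over mice (geometric in the middle panel). The 4 uninjured mice lie between 2.12% and 2.30% of all cells, above every DSS mouse.

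The share of antibody RNA within plasma cells did not pass a test. Immunoglobulin genes averaged 46.7%, 47.1%, 47.5% and 50.4% of UMIs in the uninjured mice. In the 5 anti-GFP mice with at least 3 plasma cells they averaged 50.1%, 49.7%, 56.3%, 57.9% and 54.9%. The groups overlapped in 1 uninjured mouse, at 50.4%. The means were 47.9% ± 1.69 (SD, n = 4) and 53.8% ± 3.71 (SD, n = 5), a difference of 5.86 percentage points (exact permutation p = 0.05, adjusted 0.10), which does not pass the threshold. Without either of the uninjured mice at 48 h the exact permutation p was 0.0333, with differences of 5.72 and 6.69. With SZN-1326-p the mean was 51.4% ± 6.88 (SD, n = 5), a difference of -2.35 from anti-GFP (exact permutation p = 0.417).

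Gene levels were compared over mice with at least 5 plasma cells: 4 uninjured (139 cells), 5 anti-GFP (36 cells) and 2 SZN-1326-p mice, both at 24 h (25 cells). The test was limma on log2 of each mouse's mean normalized UMIs plus 0.1, with Benjamini-Hochberg adjustment over 2554 genes that averaged at least 0.5 normalized UMIs. Between anti-GFP and uninjured, 36 genes passed at an adjusted p under 0.05 (1.41% of those tested), 14 higher (0.548%) and 22 lower (0.861%) with anti-GFP, and 334 (13.1%) had an unadjusted p under 0.05. The median log2 change over all genes tested was -0.15, and the mice of both groups did not overlap for 210 genes (8.22%). The count rested on individual mice: leaving out 1 mouse at a time gave between 8 and 58 calls. Leaving out uninjured mice gave 16 and 8 (24 h, mice 1 and 2) and 9 and 8 (48 h, mice 1 and 2), and leaving out anti-GFP mice 1 at 24 h, 2 at 48 h and 3 at 48 h gave 13, 13 and 18. Leaving out either SZN-1326-p mouse, whose spread enters the same fit, gave 57 and 58.

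The 10 largest falls were in Vim, Crip1, Tagln2, Sh3bgrl3, S100a10, Fxyd5, Cd2, Smc4, Tmsb10 and Lgals1. Vim, the intermediate filament protein vimentin (chr2:13573927-13582826, plus strand), averaged 14.3, 36.9, 23.9 and 23.0 normalized UMIs in the uninjured mice and 0.517, 5.87, 1.68, 2.94 and 8.88 in the anti-GFP mice. Every uninjured mouse was above every anti-GFP mouse. The log2 change was -3.05 ± 0.65 (SE, limma adjusted p = 0.0472). The call itself was fragile, since Vim passed under 9 of 26 other settings, while its log2 change stayed between -3.94 and -2.50 in all of them.

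Crip1, a LIM-domain protein, was the most abundant gene to fall. It averaged 37.1, 65.6, 33.1 and 38.2 normalized UMIs in the uninjured mice and 1.68, 7.51, 8.32, 4.17 and 11.1 with anti-GFP, with no overlap. The log2 change was -2.91 ± 0.41 (SE, limma adjusted p = 0.000776). S100a10, which pairs with annexin A2 at the membrane, averaged 4.66, 7.44, 6.47 and 5.44 against 0.814, 1.62, 1.21, 1.45 and 1.75. Its log2 change was -2.07 ± 0.28 (SE), again with no overlap between the groups. The actin-binding Tagln2 changed by -2.44 and Fxyd5, a regulator of the sodium pump and of cell adhesion, by -2.06. These 4 genes, Crip1, S100a10, Tagln2 and Fxyd5, passed in 25 of 26 other settings. Further falls were measured for the actin monomer binder Tmsb10 (-1.76), the SH3-binding Sh3bgrl3 (-2.14), the galectin Lgals1 (-1.73), the adhesion receptor Cd2 (-1.99) and the condensin subunit Smc4 (-1.97). Of the same 26 settings Tmsb10 and Lgals1 passed 18 each, Sh3bgrl3 17, Smc4 15 and Cd2 9. Cd2 averaged 0.455 with anti-GFP and 0.229 with SZN-1326-p, below the filter of 0.5, and entered the test through the uninjured mice.

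The lower levels of Vim and Crip1 were seen cell by cell as well as in the means. Of the uninjured cells, 88 of 139 held at least 10 normalized Vim UMIs: 14 of 28, 28 of 38, 18 of 29 and 28 of 44 in the 4 mice. With anti-GFP 5 of 38 cells did, 1 in each of 5 mice and none in the other, and with SZN-1326-p 1 of 37. The cut divides a continuous range, with 34 uninjured cells between 5 and 15 UMIs. The median uninjured cell held 15.4 normalized Vim UMIs and the upper quartile began at 33.1, whereas 19 of 38 anti-GFP and 23 of 37 SZN-1326-p cells held none. For Crip1 the median cell held 23.2 normalized UMIs in uninjured, 3.98 in anti-GFP and 4.81 in SZN-1326-p mice. Across the 139 uninjured cells, the gene whose log2 level was most like that of Vim among 2263 compared was Tagln2 (Pearson r 0.56), followed by S100a11 (0.45), S100a10 (0.44), Myadm (0.43) and Crip1 (0.43). These values describe cells of 4 mice that share depth and library.

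**Figure D2:**
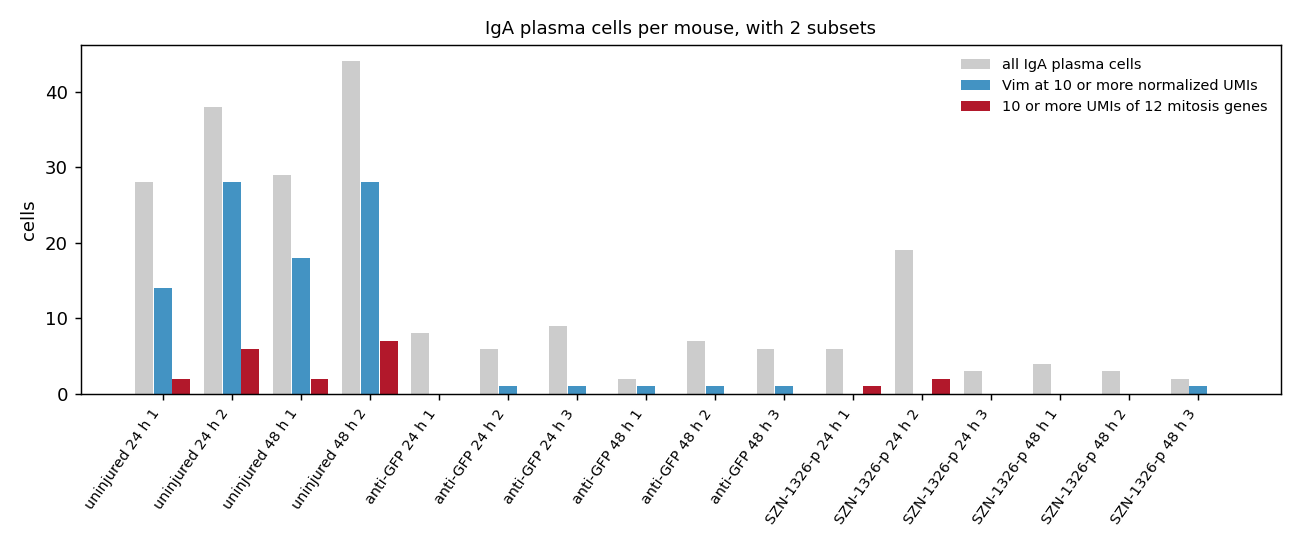
Bars count the IgA plasma cells of each mouse (grey), those with at least 10 normalized Vim UMIs (blue) and those with at least 10 UMIs summed over 12 mitosis genes (red). The 4 uninjured mice hold 88 Vim-high cells, against 5 with anti-GFP and 1 with SZN-1326-p, and 17 of the 20 cells with mitosis UMIs.

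The fall of Vim was not seen in every type. In macrophages Vim averaged 21.9 ± 2.95 (SD, n = 4) normalized UMIs in uninjured and 6.35 ± 1.03 (SD, n = 6) in anti-GFP mice, and in T cells 8.22 ± 2.93 and 3.26 ± 1.04, in both without overlap. In vascular endothelium the mice overlapped, with means of 13.9 ± 2.88 and 11.6 ± 2.10. Crip1 was lower without overlap in macrophages (7.28 to 12.5 against 1.65 to 3.19) and in T cells (5.63 to 9.52 against 1.83 to 4.18). These types were described and not tested, so neither fall is called particular to plasma cells.

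Mitosis genes set a subset of plasma cells apart. Summed over 12 of them (Mki67, Top2a, Cdk1, Birc5, Ccnb1, Ccnb2, Ccna2, Cdc20, Aurka, Aurkb, Plk1 and Bub1), 20 cells held at least 10 UMIs. They were 17 of 139 uninjured cells, in all 4 mice (2, 6, 2 and 7), 0 of 38 anti-GFP cells, a count whose upper limit is 7.89% by counting error alone, and 3 of 37 SZN-1326-p cells in 2 mice at 24 h. After each cell was thinned to 5000 UMIs outside immunoglobulin genes, with at least 5 mitosis UMIs required, the cells numbered 17 of 130, 0 of 35 and 3 of 31, and 18 shallower cells were left out. The 20 cells had a median of 35.8% immunoglobulin UMIs and 31110 UMIs in all, against 53.0% and 20661 in the other 194. The cut that chose them counts UMIs without thinning and favours cells with more UMIs outside immunoglobulin genes. This difference is therefore not independent of the choice. H2afz, a histone variant of the cell cycle list, fell by 1.34 on the log2 scale with anti-GFP (limma adjusted p = 0.0446) and passed in 11 of 26 other settings. Of the 28 cell cycle genes only 4 were abundant enough to be tested. Of these 0 were higher and 1 was lower (0.548% and 0.861% of all genes tested), with a median of -1.14. Without the 20 cells, an alternative chosen after seeing the data, 18 genes passed, all among the 36.

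**Figure D3:**
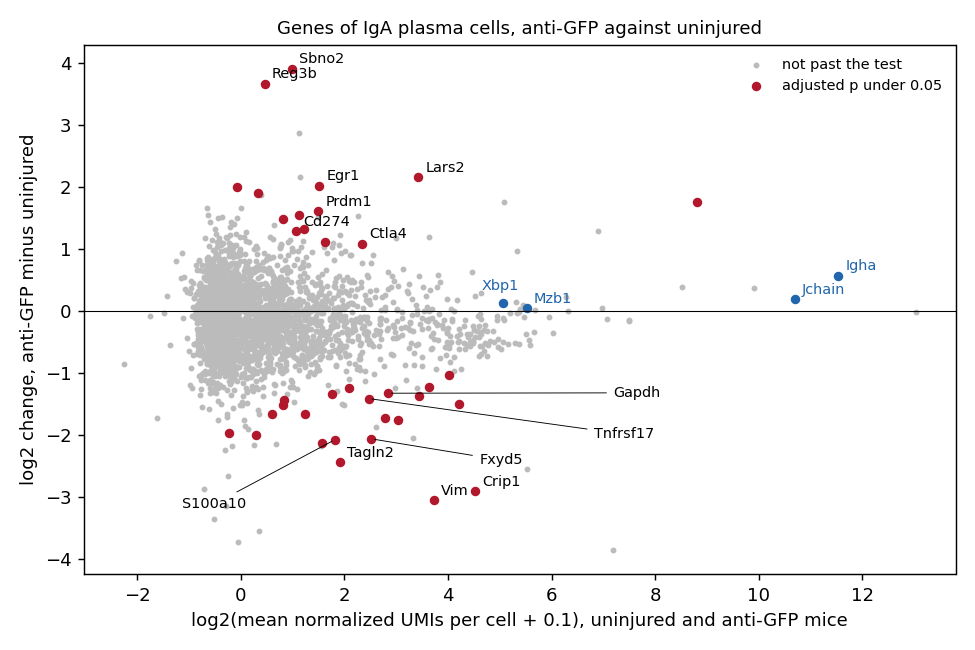
Each point is 1 of the 2554 genes tested in IgA plasma cells, by its level (log2 of mean normalized UMIs per cell plus 0.1) and its log2 change between anti-GFP and uninjured mice. Red points passed the test at an adjusted p under 0.05 and blue points are plasma cell genes that did not. Vim and Crip1 have changes of -3.05 and -2.91, while Jchain (0.19), Mzb1 (0.05) and Xbp1 (0.13) lie near 0.

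Among genes of plasma cell identity Prdm1 alone passed the test. It encodes the repressor that ends the B-cell programme and averaged between 0.897 and 1.30 normalized UMIs in the 4 uninjured mice and 4.12, 5.18, 1.31, 3.61 and 5.80 in the anti-GFP mice. The lowest anti-GFP mouse lay just above the highest uninjured one. The log2 change was 1.61 ± 0.38 (SE, limma adjusted p = 0.0472), and Prdm1 passed under 10 of 26 other settings. Of the 17 identity genes 15 were tested (Cd38 and Cd27 were too low). 1 was higher and 0 were lower (0.548% and 0.861% of all genes tested), 12 had a change above 0, and the median was 0.47 beside -0.15 over all genes.

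Of the 8 markers, the other one to pass was Tnfrsf17, and Igha, Jchain, Mzb1, Xbp1, Irf4 and Sdc1 did not. Igha averaged 2342 ± 169 (SD, n = 4) normalized UMIs in uninjured and 3483 ± 305 (SD, n = 5) in anti-GFP mice, without overlap, with a log2 change of 0.57 ± 0.19 (SE, limma adjusted p = 0.173). Jchain averaged 1546 ± 163 and 1759 ± 131 (SD, n = 4 and 5), a log2 change of 0.19 ± 0.21 (SE). Mzb1 changed by 0.05, Xbp1 by 0.13, Irf4 by -0.11 and the surface proteoglycan Sdc1 (CD138) by -0.32. The elongation factor Ell2, which favours the secreted form of the heavy chain, changed by 0.94 and the coactivator Pou2af1 by 0.78, both short of the threshold (limma adjusted p = 0.185 and 0.232). The other identity genes lay between -0.45 (Eaf2) and 0.62 (Creld2). Of the 41 immunoglobulin genes tested 0 passed, beside 1.41% of all genes, and 14 had a change above 0, beside 1005 of all 2554.

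Genes of survival and homing gave 1 call. Tnfrsf17 (chr16:11313812-11320074, plus strand), which encodes BCMA, averaged 8.38, 8.11, 7.12 and 8.52 normalized UMIs in the uninjured mice. In the anti-GFP mice it averaged 2.49, 2.47, 7.26, 2.38 and 2.08, so that 4 mice lay far below and 1 within the uninjured range. The log2 change was -1.41 ± 0.32 (SE, limma adjusted p = 0.0377), and it passed under 12 of 26 other settings. The related receptor Tnfrsf13b (TACI) changed by 0.14. Ccr10 changed by -0.88, with anti-GFP mice at 9.30, 1.99, 11.1, 2.84 and 2.68 spread around the uninjured 7.40 to 8.98. Cxcr4, the receptor for the bone marrow chemokine CXCL12, changed by 1.41 (limma adjusted p = 0.244). The gut-homing integrin chains Itga4 and Itgb7 changed by 0.21 and -0.48, the survival factors Mcl1 and Bcl2 by -0.06 and -0.79, and the death-promoting Bcl2l11 by -0.32. Of the 25 genes 16 were tested, 0 were higher and 1 was lower, with a median of 0.04, beside 0.548% higher and 0.861% lower over all genes. The remaining members tested, none past the threshold, were Il6st (1.11), Itgal (0.89), Cd93 (0.68), Ly6a (0.56), Ly6c2 (0.28), Cd28 (-0.13) and Cd9 (-0.78).

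Of 20 B-cell genes, 6 were abundant enough to be tested and 0 passed, beside 1.41% of all genes tested, with a median of -0.55. The antigen presentation genes Cd74, H2-Aa, H2-Ab1 and H2-Eb1 changed by -0.47, -0.75, -0.64 and -0.87, and Cd79a and Cd79b by 0.15 and -0.32. Blnk, the adaptor that links the B-cell receptor to its downstream enzymes, was outside that list and rose by 1.32 ± 0.28 (SE, limma adjusted p = 0.0245). It averaged 1.00 to 1.42 in uninjured and 2.27 to 4.11 in anti-GFP mice, and passed under 14 of 26 other settings.

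**Figure D4:**
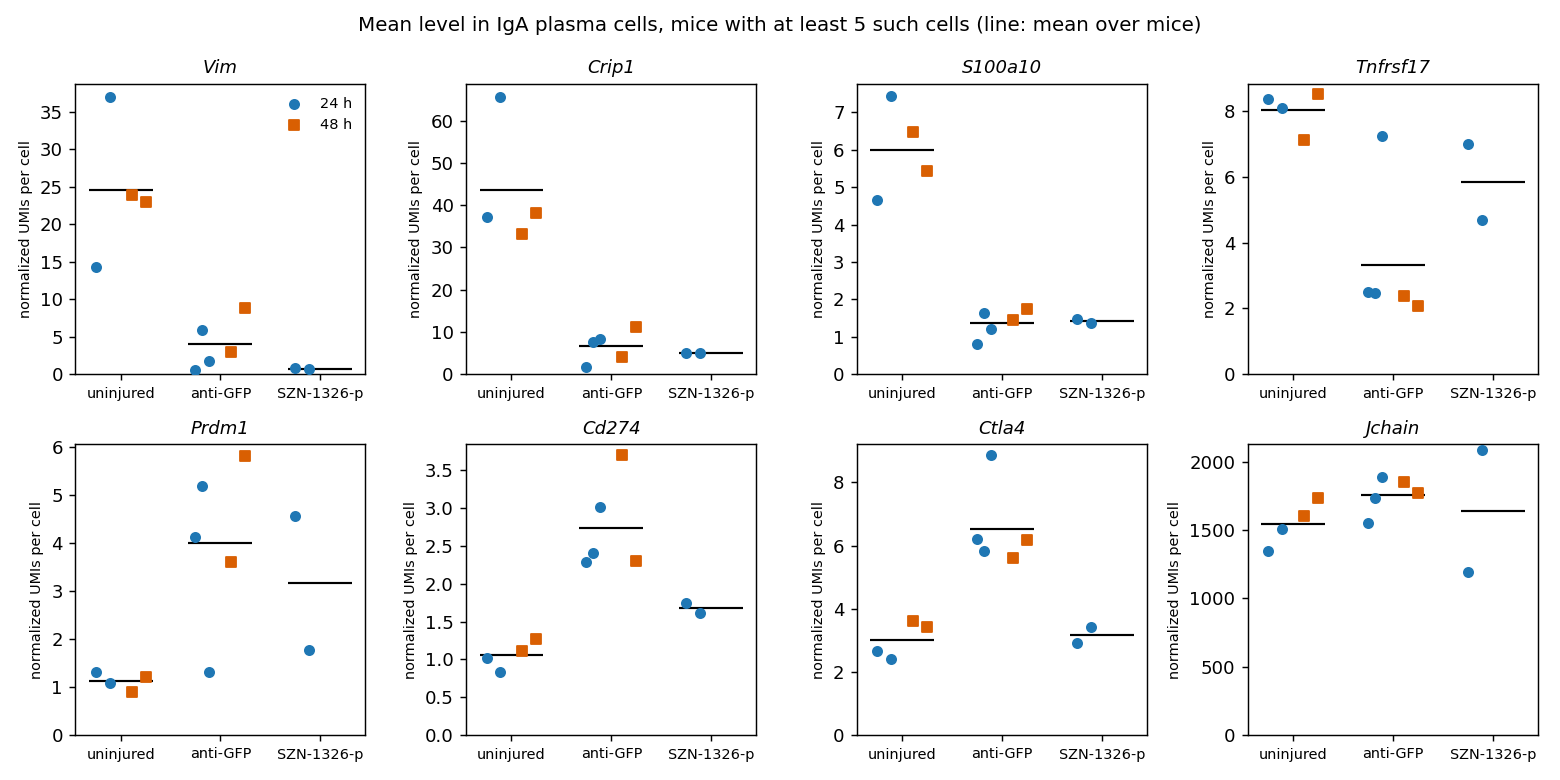
Mean normalized UMIs per cell in IgA plasma cells, 1 point per mouse with at least 5 such cells, coloured by time after dosing, with a line at the mean of each arm. Vim, Crip1 and S100a10 separate uninjured from anti-GFP mice. Tnfrsf17 has 1 anti-GFP mouse at 7.26 among the uninjured mice, and Jchain overlaps in all arms.

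Other genes that rose were led by Sbno2, a corepressor induced by STAT3 signals, which was near absent without DSS. It averaged 0, 0.180, 0.104 and 0.138 normalized UMIs in the uninjured mice and 0.903, 3.92, 3.91, 2.03 and 5.65 with anti-GFP. The log2 change of 3.91 ± 0.59 (SE, limma adjusted p = 0.00109) depends on the value added before the logarithm and ran from 0.90 to 5.20 over the 26 other settings, of which Sbno2 passed 25. Lars2, a mitochondrial leucyl-tRNA synthetase, averaged 2.44 to 4.82 and 9.64 to 24.6, a change of 2.16 ± 0.31 (SE), and also passed 25. Gm42418, an abundant non-coding gene model named after its values were seen, rose beside it by 1.76 (limma adjusted p = 0.0029). Gm42418 was not followed across the other settings. It averaged 277, 141, 143 and 206 normalized UMIs in the uninjured mice and 968, 678, 463, 395 and 792 in the anti-GFP mice, in which Lars2 stood at 24.6, 13.2, 13.2, 9.64 and 21.4. In T cells Lars2 averaged 2.53 to 6.02 in uninjured and 5.13 to 10.2 in anti-GFP mice, and in vascular endothelium 3.06 to 4.95 and 5.92 to 10.5. The early-response factor Egr1 (2.02), the secreted glycoprotein Lgals3bp (1.99), Kctd12 (1.90), the RNA helicase Ddx3x (1.55) and AU020206 (1.49) completed the named rises. Of 26 other settings Egr1 passed 22, AU020206 13, Lgals3bp and Kctd12 10 each and Ddx3x 8, and Kctd12 overlapped between the groups. Sbno2, Lgals3bp and Kctd12 averaged 0.105, 0.217 and 0.350 in uninjured mice, below the filter of 0.5. They entered the test only through the DSS mice, in which they were higher. Their rises are therefore not independent of the filter. Egr1 was the 1 gene called of 16 tested that respond early to dissociation, beside 1.41% of all genes. That list had a median of 0.36.

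Reg3b, an antimicrobial lectin made by injured gut epithelium, had a log2 change of 3.66 in plasma cells. It averaged 0 to 0.0363 in uninjured mice and 0.828, 0.681, 7.89, 0.784 and 1.22 with anti-GFP. The same gene was at 0 in all uninjured T cells and vascular endothelium, and averaged 0.663 to 10.6 and 0.207 to 6.38 there with anti-GFP. The part of RNA from outside the cell in this rise was not tested. Markers of epithelium were present in most plasma cells, with UMIs of at least 2 of 8 such genes in 203 of 214 cells. Their summed level was 9.92 to 19.6 normalized UMIs in uninjured, 5.12 to 14.4 in anti-GFP and 8.98 to 10.6 in SZN-1326-p mice, while Muc2 alone reached 632 in BasalGoblet. Markers of fibroblasts, endothelium, T cells, myeloid cells and neutrophils were too low to be tested. The highest summed level in any fitted mouse was 5.70 for fibroblast, 1.00 for myeloid, 0.798 for endothelial, 0.323 for neutrophil and 0.165 for T-cell markers, and the neutrophil markers were all at 0 in the uninjured mice.

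Cd274, Ctla4 and St6gal1 also rose and are named here after their values were seen. Among the other called genes of surface proteins, Cd2, Cd52 (-1.50), Tnfrsf17, H2-Q7 (-1.24) and Fxyd5 fell. Cd274, Ctla4, St6gal1, Cd52 and H2-Q7 were not followed across the other settings. Cd274 encodes the checkpoint ligand PD-L1. It averaged 1.01, 0.831, 1.11 and 1.27 in the uninjured and 2.29, 2.41, 3.02, 3.70 and 2.30 in the anti-GFP mice, with no overlap (log2 change 1.29 ± 0.28 SE, limma adjusted p = 0.0254). Ctla4, a checkpoint receptor best known from T cells, averaged 2.66, 2.40, 3.60 and 3.42 against 6.19, 5.82, 8.88, 5.60 and 6.18, again with no overlap (1.09 ± 0.25 SE, limma adjusted p = 0.0405). The 6 T-cell markers summed to 0.0407 to 0.165 normalized UMIs in uninjured and to 0 to 0.156 in anti-GFP mice. St6gal1, which adds sialic acid to antibody glycans, changed by 1.11. In the 2 SZN-1326-p mice Cd274 stood at 1.74 and 1.61 and Ctla4 at 2.90 and 3.41, with changes from anti-GFP of -0.66 and -1.01 (limma adjusted p = 0.607 and 0.351), neither past the threshold.

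No gene of the endoplasmic reticulum lists passed the test, which 1.41% of all genes passed. Of 29 chaperone and unfolded-protein-response genes tested, 0 passed in either direction (3 had an unadjusted p under 0.05, all higher, beside 13.1% of all genes in either direction), with a median of 0.23. Hspa5, whose promoter is printed above, averaged 38.5 ± 10.4 (SD, n = 4) in uninjured and 41.6 ± 22.2 (SD, n = 5) in anti-GFP mice, a log2 change of -0.03 ± 0.38 (SE). Derl3 stood at 3.92, 4.15, 3.60 and 4.96 against 4.93, 6.77, 4.99, 9.96 and 5.10, and changed by 0.55 (limma adjusted p = 0.434). Creld2 changed by 0.62 (limma adjusted p = 0.351). Of 43 secretory pathway genes 0 passed, with a median of 0.01. Their summed level was 231 to 282 normalized UMIs in uninjured and 210 to 313 in anti-GFP mice.

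Lists of metabolism and protein turnover gave 1 call, in a test that 1.41% of all genes passed. Of 27 oxidative phosphorylation genes 0 passed, 23 had a change below 0 and the median was -0.46. Of 26 proteasome genes 0 passed, 23 were below 0 and the median was -0.35. Both medians are below the -0.15 of all genes, for which 1549 of 2554 changes were below 0. Gapdh was the 1 of 10 glycolysis and hypoxia genes that passed, and fell by 1.33 on the log2 scale, a call kept in 9 of 26 other settings. Of 13 interferon-response genes tested 0 passed, with a median of -0.33. Of 8 NF-kB and cytokine genes and of 6 apoptosis genes 0 passed, with medians of -0.32 and -0.31.

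Called genes differed in length by direction. The 22 genes called lower had a median longest transcript of 1308 bases and the 14 called higher 4189, against 2956 over the 2541 genes with a known length. The mean log2 level of long genes (at least 4040 bases) less that of short genes (at most 2175 bases) was 0.05, -0.59, -0.42 and -0.43 in the uninjured mice and 0.59, 0.68, -0.24, 0.02 and -0.02 in the anti-GFP mice fitted. In the SZN-1326-p mice fitted it was 0.75 and -0.32. The arms overlapped, the 5 DSS mice that were not fitted (-0.55 to -0.32) lay within the uninjured range, and the difference between arms was not tested. With this measure as a covariate, an alternative chosen after seeing the data, 19 genes passed, 12 of them among the 36. The part of length in the remaining calls was not tested.

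Between SZN-1326-p and anti-GFP, 0 of 2554 genes (0.0%) passed in limma, 216 (8.46%) had an unadjusted p under 0.05, and limma with voom weights on the recovered UMIs also called 0. The comparison had 2 SZN-1326-p mice, both at 24 h, against 5 anti-GFP mice of both times, so time and treatment are partly mixed. The smallest p values belonged to Map7d1 (log2 change -2.74, limma adjusted p = 0.0565), a microtubule-associated protein, and Cped1 (-3.26, limma adjusted p = 0.0565). Dennd4a, the transcription factor Foxo1 (-2.56) and the EGR corepressor Nab1 (-2.71) followed, each with an adjusted p of 0.233. Cped1 and Nab1 had no UMI in either SZN-1326-p mouse fitted, so their log2 changes depend on the 0.1 added and are not measured folds. Without mouse 2 of SZN-1326-p at 24 h the fit called 204 genes, 181 of them lower, which compares a single mouse of 6 plasma cells on the assumption that it varied like the others. Without mouse 1 of the same group it called 0.

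The changes measured with anti-GFP can be read in the SZN-1326-p mice as values. Vim averaged 0.826 and 0.621, Crip1 4.99 and 4.89, and S100a10 1.47 and 1.36, all below every uninjured mouse. Tnfrsf17 averaged 7.01 and 4.69 and Prdm1 4.55 and 1.76. In the SZN-1326-p mice with under 5 plasma cells, which were not fitted, Crip1 stood at 3.07 (3 cells) at 24 h and at 8.54, 31.4 and 77.2 (4, 3 and 2 cells) at 48 h, so that the last lay above every uninjured mouse. Both DSS arms pooled against uninjured gave 20 calls, 16 of them among the 36. These comparisons share the uninjured and anti-GFP mice and are not independent of each other.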

How the data were processed

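Cell types and mice came from text columns (unit: other) of the deposited annotation, which calls the SZN-1326-p arm SWAP. Cell Ranger 3.0.2 and mm10 are named in the submitters' processing notes. The deposited matrix (16039 genes, 22717 cells) is in log2. Read from the values, it is log2 of UMIs over a size factor plus 1, since undoing this gave whole UMIs for 100% of 60867816 entries (tolerance 1e-06). Cell filters, doublet treatment and the size factor method are not given in the sources used here. The deposited unit was not raw counts, so the gene test was limma 3.58.1 (trend, robust, 8 residual degrees of freedom; R 4.3.3) on log2 of the mouse mean of un-logged values plus 0.1, checked on simulated data. A log2 change on this scale understates the change of low genes. Shares were tested over mice by exact permutation within time (Python 3.11.15, scipy 1.17.1, numpy 2.4.6). Each mouse was 1 replicate, and 0 columns of other samples were present.

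The members, the gene lists, the markers and the tests were chosen with earlier results of these data known. Named genes were the markers, all measured members of the identity, survival and homing, and B-cell lists, the largest changes past the test (up to 10 per direction), up to 4 passing members of other lists, the 5 smallest p where fewer than 5 passed, and the 20 highest folds over other types. Gene models, ribosomal, mitochondrial, immunoglobulin and haemoglobin genes were counted and not named. Coordinates are from GENCODE vM21 (mm10). Promoters are from RefSeq (GRCm38.p6). Replicate numbers were not treated as pairs in the main tests.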

Additional observations from a re-analysis of the deposited data

Results flagged for a closer look

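In groups of 4 to 10 mice, the gap between the highest or lowest mouse and its neighbour was compared with Dixon's 95% limit in 55 groups of values, of which chance alone flags about 1 in 20. Mouse 2 of SZN-1326-p at 24 h stood apart with plasma cells at 1.15% of all cells (arm median 0.240%). Mouse 1 of anti-GFP at 24 h stood apart with 3.40 plasma cells per B cell (arm median 0.274). Mouse 3 of anti-GFP at 24 h stood apart in 3 genes of plasma cells, with Reg3b at 7.89 normalized UMIs (arm median 0.828), Egr1 at 1.94 (4.66) and Tnfrsf17 at 7.26 (2.47). Among uninjured mice at 24 h, mouse 2 stood apart with Crip1 at 65.6 (37.7) and mouse 1 with Fxyd5 at 6.94 (10.5). No cause of these values was tested.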

How the results depend on the processing

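The lower share with anti-GFP passed without the logarithm (-1.61 percentage points), among immune cells (log2 -4.10) and without each mouse (-2.09 to -1.66). The ratio to B cells ran from -4.57 to -3.46 without each mouse. With the replicate block these gave -2.19 and -3.30, each with an exact permutation p of 0.125, the smallest that block allows. Deviations of same-numbered mice from their group means correlated by -0.08 to 0.19. In groups of 2 mice such deviations mirror each other, so these values cannot decide whether the numbers pair the mice. For SZN-1326-p, leaving out 1 mouse gave shares of -1.28 to -0.63, with no turn of sign and exact permutation p values from 0.015 to 0.22. Ratios to B cells then ran from -0.45 to 0.70, with the sign turning in 7 of 12 cases and none past the threshold. The immunoglobulin difference ran from 4.83 to 6.88 with anti-GFP.

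Against the 36 genes, the counts were 22 with 0.01 added before the logarithm, 20 with no filter, 11 with mice of at least 3 cells, 296 with voom (48 higher, 248 lower, all 36 among them), 61 with the 2 arms alone and 20 with both DSS arms. The split of higher and lower calls, 14 and 22, moved by over 10 percentage points with voom and with no filter (5 and 15). The split also moved by over 10 points with the length covariate (10 and 9) and at 24 h alone (0 and 1). So it did without uninjured mouse 2 at 24 h (4 and 4) or anti-GFP mouse 2 at 24 h (13 and 13). Leaving out uninjured mouse 1 (5 and 4) or mouse 2 (4 and 4) at 48 h also moved it by over 10 points. Leaving out 1 mouse gave 8 to 58 calls. Added after seeing the data, dropping cells with mitosis UMIs gave 18, the length term 19 and 24 h alone 1. The replicate block gave 37 calls with anti-GFP, 24 of them shared, and 2 with SZN-1326-p. For SZN-1326-p, 0 became 2 with the filter at 0.2, 2 with the length term and 0 to 204 without 1 mouse. Of the 23 genes followed across settings, no change turned sign. The causes were not tested. A fit of mice with at least 10 cells, and one without cells carrying 2 markers of another lineage, were not run: no anti-GFP mouse had 10 cells and 204 of 214 cells carried such markers. Few plasma cells per DSS mouse limit every value above.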
